A study of Mus musculus with 4 samples.

Results

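The cytochromes P450 of the Cyp3a and Cyp2b families and their electron donor, NADPH-cytochrome P450 reductase (Por), were followed across the 4 arrays. Members were the probe sets annotated with 1 of 10 gene symbols (Cyp3a11, Cyp3a13, Cyp3a16, Cyp3a25, Cyp3a41a, Cyp3a44, Cyp2b9, Cyp2b10, Cyp2b13 and Por), current or older. The rule found 11 of 22626 probe sets, 6 of the Cyp3a and 5 of the Cyp2b family, which cover 9 of the 10 genes. Cyp2b10 has 3 probe sets and the other genes 1 each. The Cyp3a41a probe set is annotated to Cyp3a41a and its near-identical copy Cyp3a41b together, so its values are given for both. No probe set is named for Por in the annotation used here, and it was not analysed here.

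The 4 groups were wild-type mice (labelled 129S1/SvImJ) fed Wy14643, a synthetic PPARα agonist, at 0.1% of the food for 5 days, wild-type mice on the same food without it, PPARα-null mice (labelled 129S4/SvJae) fed Wy14643 in the same way, and PPARα-null mice on the control diet. The mice are labelled as males of 12 to 20 weeks. PPARα-null mice lack functional PPARα in every tissue, and the substrain given in the labels differs between the genotypes. Liver RNA of each group was pooled and hybridized to 1 Affymetrix MOE430A array, so there are no replicates, no p-value is given, and a ratio cannot be set against the spread between mice. Values are GCRMA intensities on the linear scale. Precision is limited by there being 1 array a group.

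Cyp3a and Cyp2b enzymes sit in the endoplasmic reticulum of hepatocytes and oxidize drugs, steroids and bile acids, with electrons passed on from Por. Their genes are the classic targets of 2 xenobiotic receptors, the pregnane X receptor PXR (Nr1i2) and the constitutive androstane receptor CAR (Nr1i3), which bind DNA together with RXR, the partner that PPARα uses as well. In mouse liver, several family members also differ between the sexes: Cyp3a41, Cyp3a44, Cyp2b9 and Cyp2b13 are known as female-predominant in adults, and Cyp3a16 was described as a form of fetal and newborn liver.

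Background was taken as an intensity of 13.3, the 90th percentile of 68 probe sets of 40 genes that liver does not express, and between 52.1% and 52.9% of the probe sets on an array exceeded it. Albumin and the other hepatocyte markers were bright on all 4 arrays, with 9 of 9 measured markers above background and summed intensities of 84102 in Wy14643-fed wild-type mice, 102071 in wild-type controls, 104164 in Wy14643-fed PPARα-null mice and 104438 in PPARα-null controls. Ppara itself had intensities of 428 and 326 in Wy14643-fed PPARα-null mice and on the control diet, against 1250.1 and 847 in wild-type mice. The sources used here do not say if its probes match the deletion, so these values do not check the genotype.

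The sex given in the labels was not matched by the transcripts that mark it. Xist, the RNA that coats the inactive X chromosome of female cells, was above background with 3 of 3 probe sets on every array, and its brightest probe set read 328 in Wy14643-fed wild-type mice, 606 in wild-type controls, 1029.8 in Wy14643-fed PPARα-null mice and 603 in PPARα-null controls. The Y-linked genes Eif2s3y, Kdm5d and Uty, which male tissues transcribe widely, were below background with all 6 probe sets on all 4 arrays (4.17 to 10.3). These genes were looked up after other values had been seen. The brightest Xist probe set was lowest in the wild-type Wy14643 pool, as was the dimmest (18.2, against 20 to 23 in the other pools). The remaining Xist probe set was not, with 309.6 in that pool and its lowest value, 287, in wild-type controls. On all 4 arrays these transcripts thus had the pattern of female tissue, and not that of the labelled sex. The part of the sex of the mice in the values that follow was not tested. The pools are called by genotype and diet only in what follows, since Cyp3a41, Cyp3a44, Cyp2b9 and Cyp2b13 are among the genes that differ between male and female mice.

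**Figure D1:**
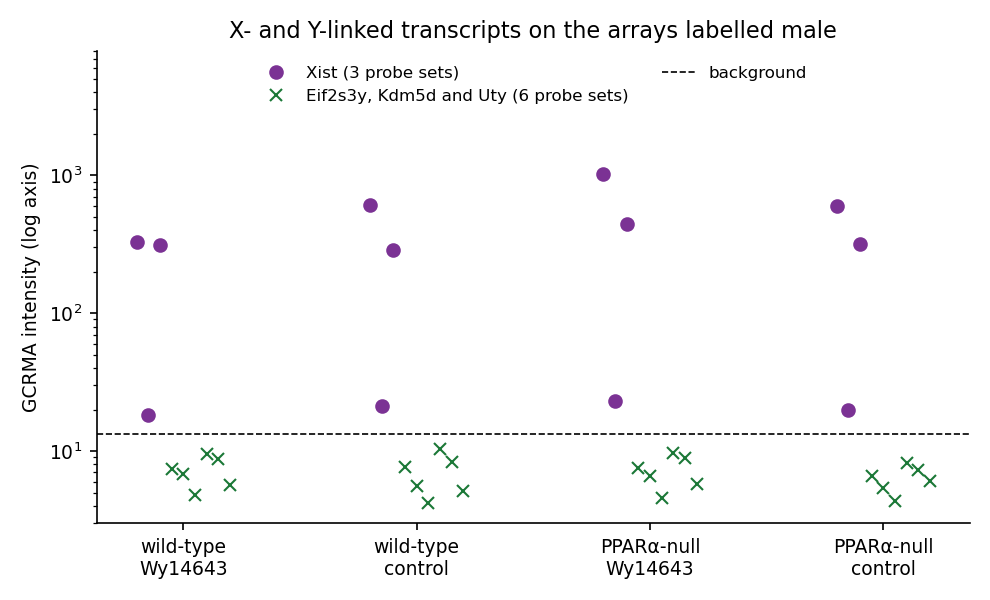
Intensity (log axis) of Xist and of 3 Y-linked genes on the 4 arrays, 1 point per probe set, with the background of 13.3 as a dashed line. All Xist points lie above the line and all Y-linked points, at 10.3 or less, below it.

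Of the Cyp3a genes measured, all but Cyp3a13 lie in 1 cluster on chromosome 5, in the order Cyp3a16, Cyp3a41b, Cyp3a41a, Cyp3a44, Cyp3a11 and Cyp3a25 in the reference gene table (GRCm38.p6). Stretches of 150 bases from the promoters of 5 of them are shown because neighbouring genes with closely related promoters differed in their values. The sequences are from RefSeq on build GRCm38.p6, all on the minus strand, and run 5′ to 3′ from 250 to 101 bases before the start of the gene. Capitals mark matches on either strand to the nuclear receptor half-sites AGGTCA and AGTTCA, to TATAAA and to TGTTTAC, a core of forkhead (Foxa) binding sites.
Cyp3a16, chr5:145469824-145469973: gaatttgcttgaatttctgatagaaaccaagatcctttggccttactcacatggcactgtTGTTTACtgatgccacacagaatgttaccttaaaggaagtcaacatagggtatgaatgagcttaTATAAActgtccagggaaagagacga
Cyp3a44, chr5:145805975-145806124: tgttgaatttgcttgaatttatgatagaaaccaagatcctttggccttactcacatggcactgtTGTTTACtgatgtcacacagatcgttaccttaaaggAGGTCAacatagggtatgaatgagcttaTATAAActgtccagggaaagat
Cyp3a41a, chr5:145720237-145720386: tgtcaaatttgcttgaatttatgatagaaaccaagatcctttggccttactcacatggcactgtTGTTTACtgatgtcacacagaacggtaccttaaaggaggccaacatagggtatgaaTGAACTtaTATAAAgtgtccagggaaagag
Cyp3a11, chr5:145879955-145880104: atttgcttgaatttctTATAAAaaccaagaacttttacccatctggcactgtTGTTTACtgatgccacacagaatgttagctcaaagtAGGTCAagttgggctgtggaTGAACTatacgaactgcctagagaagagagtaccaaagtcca
Cyp3a25, chr5:146009719-146009868: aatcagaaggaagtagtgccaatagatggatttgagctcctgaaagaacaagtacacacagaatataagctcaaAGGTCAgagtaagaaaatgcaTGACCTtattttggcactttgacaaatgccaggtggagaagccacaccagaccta

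Over the 250 bases before the start, the promoters of Cyp3a16, Cyp3a41a and Cyp3a44 were 91.3% to 94.4% identical to one another, Cyp3a41a and Cyp3a41b 99.6%, and Cyp3a11 72.5% to 76.6% identical to Cyp3a16, Cyp3a41a and Cyp3a44. Cyp3a25 shared 54.3% to 57.4% with the others of the cluster and Cyp3a13 52.7% to 58.0% with those of the other Cyp3a genes, and Cyp3a and Cyp2b promoters shared 46.0% to 53.8%. The promoter of Por, a gene outside both families, shared 43.7% to 49.0% with those of the Cyp3a genes in the same alignment. Cyp2b9 and Cyp2b13 were 99.2% identical, and each shared 71.0% with Cyp2b10. The forkhead core began 190 bases before the start in Cyp3a16, 186 in Cyp3a44 and Cyp3a41a and 198 in Cyp3a11. It was present in 5 of 11 member promoters (Cyp3a41b being the fifth) and in 3.17% of all 32851 promoters in the table. AGGTCA was found in 5 of the 11 (4607 of all promoters), AGTTCA in 3 (11.8%) and TATAAA in 5 (12.4%). The growth hormone response motif TTCNNNGAA (7.02% of all promoters) and the palindromic HNF1 motif (0.00913%) had 0 matches in members. A match is a description of the letters in this window only.

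Cyp3a16 was the member that differed the most between arrays. Its intensity was 17.6 in Wy14643-fed wild-type mice, against 635 in wild-type controls, and 447 in Wy14643-fed PPARα-null mice, against 598 in PPARα-null controls. The wild-type Wy14643 pool thus stood alone, near background, and the other pools lay between 447 and 635. The level in Wy14643-fed wild-type mice was 36.0-fold below that of their controls (log2 ratio -5.17), which left 2.78% of the control level, and only 17 of the 12623 probe sets that exceeded background on either array (0.135%), Cyp3a16 included, were as far down. In PPARα-null mice the ratio was 1.34-fold lower (log2 ratio -0.42). With 32 added to every intensity, which damps ratios near background, the wild-type log2 ratios of Cyp3a16 and Cyp3a44 were -3.75 and -3.60.

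Cyp3a44, which is female-predominant in adult mouse liver, was likewise lowest in the wild-type Wy14643 pool. It read 74 in Wy14643-fed wild-type mice, against 1256 in wild-type controls, and 885 in Wy14643-fed PPARα-null mice, against 1373 in PPARα-null controls. Again the wild-type Wy14643 pool was the low one, here at 5.55 times background. It was 17.0-fold lower than its control (log2 ratio -4.08), a distance reached by 27 of the 12623 probe sets (0.214%). Cyp3a44 was also lower on Wy14643 in PPARα-null mice, by 1.55-fold (log2 ratio -0.63), where 3.96% of 12396 probe sets were as low. This ratio lies close to the threshold of 1.5-fold and fell below it when each array was centred on its median.

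The Cyp3a41a/Cyp3a41b probe set, whose promoters are nearly those of Cyp3a16 and Cyp3a44, differed much less between pools. Its intensity was 8179 in Wy14643-fed wild-type mice, against 12852 in wild-type controls, and 12363 in Wy14643-fed PPARα-null mice, against 13306 in PPARα-null controls. The wild-type Wy14643 pool was again the lowest, but far less so than for Cyp3a16 and Cyp3a44. The ratio was 1.57-fold lower in wild-type mice (log2 ratio -0.65), as for 13.1% of all probe sets, and 1.08-fold lower in PPARα-null mice (-0.11). How far probes of these closely related Cyp3a transcripts bind one another's RNA was not tested, so the 3 probe sets may not be independent.

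Cyp3a11, the main drug-inducible Cyp3a enzyme of mouse liver and the standard readout of PXR activation, went the other way. It read 4453 in Wy14643-fed wild-type mice, against 3141 in wild-type controls, and 4052 in Wy14643-fed PPARα-null mice, against 2299.7 in PPARα-null controls. Both Wy14643 pools were thus above both control pools. The ratio was 1.42-fold higher in wild-type mice (log2 ratio 0.50), short of 1.5-fold and matched or exceeded by 17.7% of probe sets, and 1.76-fold higher in PPARα-null mice (0.82). In PPARα-null mice only 65 of 12396 probe sets (0.524%) were as far up. The difference between the responses was 0.31 on the log2 scale (PPARα-null minus wild-type). Over all probe sets this difference had an SD of 0.85, which is a spread between probe sets and not an error of Cyp3a11.

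Cyp3a25, a constitutive Cyp3a gene of liver and intestine, had an intensity of 3447 in Wy14643-fed wild-type mice, against 4865 in wild-type controls, and 6761 in Wy14643-fed PPARα-null mice, against 5922 in PPARα-null controls. Its lowest value was in Wy14643-fed wild-type mice and its highest in Wy14643-fed PPARα-null mice. The ratio to control was 1.41-fold lower in wild-type (log2 ratio -0.50) and 1.14-fold higher in PPARα-null mice (0.19), both short of 1.5-fold. Cyp3a13, the member that lies apart from the cluster, was the steadiest, with 1746 in Wy14643-fed wild-type mice and 1793 in wild-type controls, and 1579 in Wy14643-fed PPARα-null mice and 1819 in PPARα-null controls. Its highest and lowest arrays differed by 1.15-fold.

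**Figure D2:**
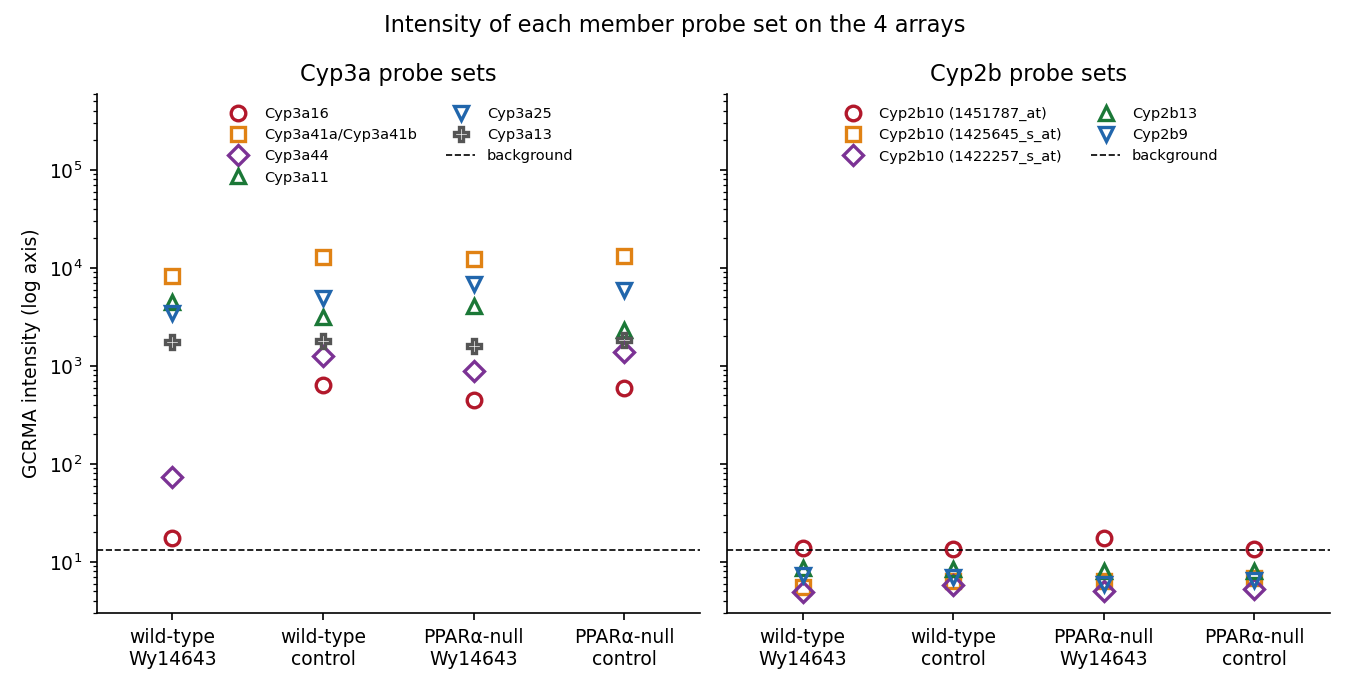
Intensity (log axis) of the 6 Cyp3a and 5 Cyp2b probe sets on each of the 4 arrays, 1 point per array, with the background of 13.3 as a dashed line. Cyp3a16 (17.6) and Cyp3a44 (74) stand far lower in Wy14643-fed wild-type mice than on the other arrays, and the Cyp2b points lie below background, except those of 1 Cyp2b10 probe set at 13.5 to 17.7.

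The Cyp2b genes gave almost no signal. Cyp2b10, the classic phenobarbital-inducible CAR target, had 1 probe set just above background, with 13.8 in Wy14643-fed wild-type mice and 13.5 in wild-type controls, and 17.7 in Wy14643-fed PPARα-null mice and 13.6 in PPARα-null controls. The highest value was 1.33 times background. The other Cyp2b10 probe sets, at 4.98 to 6.78, were below background on all arrays, as were Cyp2b9 (5.91 to 7.41) and Cyp2b13 (8.02 to 8.67), so no fold is given for them. Cyp2b10 reached 1.30-fold in PPARα-null mice (log2 ratio 0.38) and 1.02-fold in wild-type mice (0.03), both short of 1.5-fold. A change of Cyp2b10 in either genotype was not detectable at this signal over background.

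Over the 7 member probe sets above background, 3 were at least 1.5-fold lower and 0 higher in the Wy14643 pool of wild-type mice, relative to its control, where 14.9% of all 12623 probe sets were lower and 14.9% higher (median log2 ratio of members -0.50, of all probe sets 0.02). In PPARα-null mice 1 was higher (Cyp3a11) and 1 lower (Cyp3a44), against 2.17% higher and 4.78% lower among all probe sets (median -0.11 for members and -0.02 for all). Members just under the threshold in wild-type mice were Cyp3a11 and Cyp3a25. The plot of the ratios sets these comparisons side by side for each gene.

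**Figure D3:**
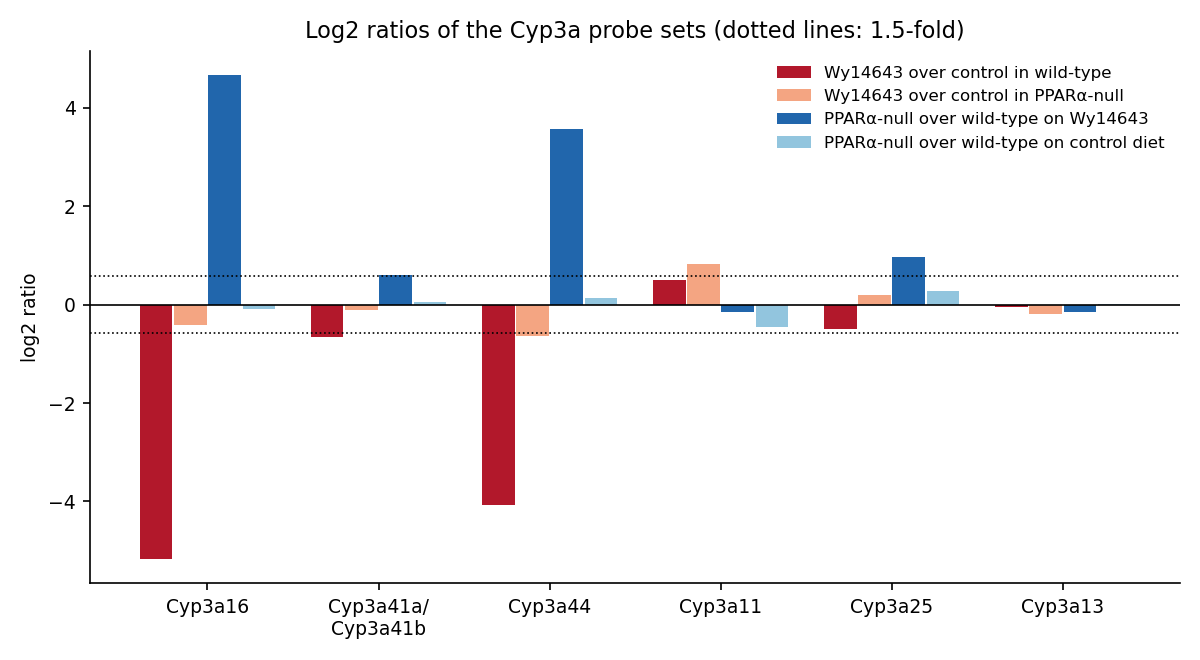
Log2 ratios of the 6 Cyp3a probe sets in 4 comparisons, 1 bar per ratio of single arrays, with dotted lines at 1.5-fold. The wild-type bars for Wy14643 reach -5.17 for Cyp3a16 and -4.08 for Cyp3a44, while Cyp3a11 stood at 0.50 in wild-type and 0.82 in PPARα-null mice.

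**Figure D4:**
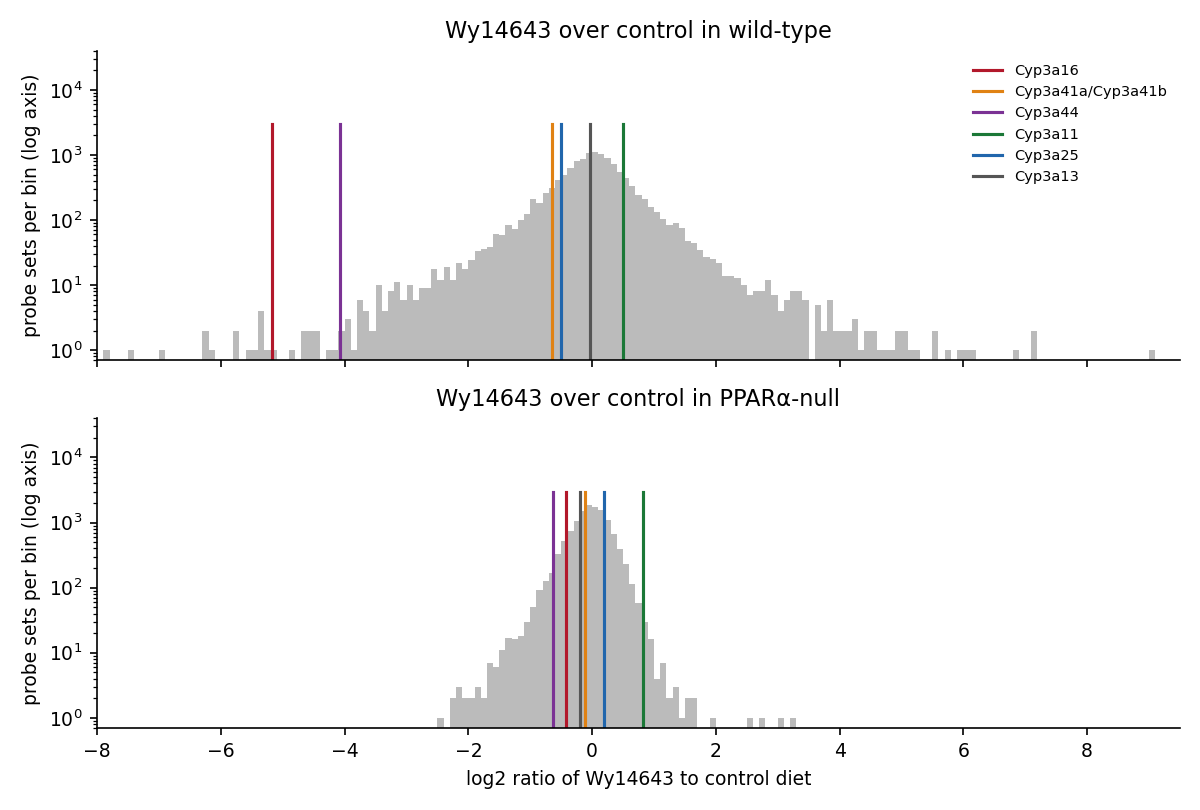
Log2 ratio of Wy14643 to control diet over all probe sets measured in that genotype (grey, log axis of counts), with the Cyp3a probe sets as coloured lines, for wild-type (top) and PPARα-null mice (bottom). The ratios of all probe sets had an SD of 0.84 in wild-type and 0.33 in PPARα-null mice, and Cyp3a16 and Cyp3a44 lie in the lower tail in wild-type mice, at -5.17 and -4.08.

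The comparison between the genotypes shares its arrays with the comparisons above. On the control diet, 0 of the 7 members reached 1.5-fold in either direction, where 2.45% of 12236 probe sets were higher and 2.27% lower in PPARα-null mice. The largest ratio there was that of Cyp3a11, 1.37-fold lower in PPARα-null mice (log2 ratio -0.45), as for 3.64% of probe sets, and Cyp3a16 and Cyp3a44 stood at -0.09 and 0.13. On Wy14643, 4 of the 7 were higher in PPARα-null mice and 0 lower, against 16.5% and 17.1% of 12726 probe sets. They were Cyp3a16 (25.4-fold, log2 ratio 4.67), Cyp3a44 (12.0-fold, 3.58), Cyp3a25 (1.96-fold, 0.97) and Cyp3a41a/Cyp3a41b (1.51-fold, 0.60). Cyp3a11 was level between the genotypes on this diet, with a ratio of 1.10-fold lower in PPARα-null mice.

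The difference of the responses, PPARα-null minus wild-type on the log2 scale, was 4.75 for Cyp3a16, 3.45 for Cyp3a44, 0.69 for Cyp3a25, 0.55 for Cyp3a41a/Cyp3a41b and -0.17 for Cyp3a13. Of the 7 members, 3 were past 1.5-fold upwards and 0 downwards, where 14.6% of 13039 probe sets were past it upwards and 17.3% downwards. With single arrays this difference was not tested.

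Of the genes beside the cluster, the brighter Atp5j2, Rnf6 and Cdk8 stayed much nearer to their control level than Cyp3a16 and Cyp3a44. The 3 nearest measured genes on each side, Zkscan5, Zkscan14 and Atp5j2 before it and Rnf6, Cdk8 and Usp12 after it, had log2 ratios of -0.61 to 0.26 in the wild-type comparison of Wy14643 with control. The lowest was Usp12, with 18.7 in Wy14643-fed wild-type mice and 28.5 in wild-type controls. Zkscan5 and Zkscan14 read 26.3 and 15.6 in wild-type controls. With background at 13.3, Usp12, Zkscan5 and Zkscan14 could not show a fall as large as that of Cyp3a16 or Cyp3a44. Atp5j2, Rnf6 and Cdk8 read 6152, 448 and 382 in Wy14643-fed wild-type mice, against 5154, 497 and 379.9 in wild-type controls. These neighbours were looked up after the values of the cluster were known.

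Other targets of CAR and PXR were mostly lower on Wy14643 in wild-type mice, in a list of 31 genes of which 25 had a probe set of their own. Of 24 measured, 13 were at least 1.5-fold lower, 5 higher and 6 between (median log2 ratio -1.18). Among all probe sets of this comparison, 14.9% were lower and 14.9% higher. The lowest was the sulfotransferase gene Sult1a1, with 80.2 in Wy14643-fed wild-type mice and 4358 in wild-type controls (54.3-fold lower). The organic anion transporter gene Slco1a4 (25.3-fold) and the carboxylesterase gene Ces2a (17.6-fold) followed. On the other side stood Gadd45b, a stress-induced gene below background in wild-type controls and therefore at least 5.00-fold higher, the epoxide hydrolase gene Ephx1 (2.50-fold higher) and the estrogen sulfotransferase gene Sult1e1 (2.29-fold higher).

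In PPARα-null mice the same list held 3 higher, 1 lower and 19 between among 23 measured genes (median 0.11). Among all probe sets of this comparison, 2.17% were higher and 4.78% lower. The higher genes were the exporter gene Abcc3, the glutathione S-transferase gene Gstm3 and Ephx1. Abcc3, whose product pumps conjugates into blood, read 1834 in Wy14643-fed wild-type mice and 1088 in wild-type controls (1.68-fold higher), and 2027 in Wy14643-fed PPARα-null mice and 1059.7 in PPARα-null controls (1.91-fold higher). Ephx1 read 5097 in Wy14643-fed wild-type mice and 2038 in wild-type controls, and 3654 in Wy14643-fed PPARα-null mice and 2389.7 in PPARα-null controls (1.53-fold higher). Abcc3 and Ephx1 thus passed 1.5-fold upwards in both genotypes, Cyp3a11 in PPARα-null mice, and Gstm3 was 4.75-fold lower in wild-type mice. Between the genotypes on the control diet, Sult1e1 was 21.9-fold higher in PPARα-null mice, while 18 of 23 genes of the list lay between. Of all probe sets, 2.45% were higher and 2.27% lower in PPARα-null mice on this diet.

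**Figure D5:**
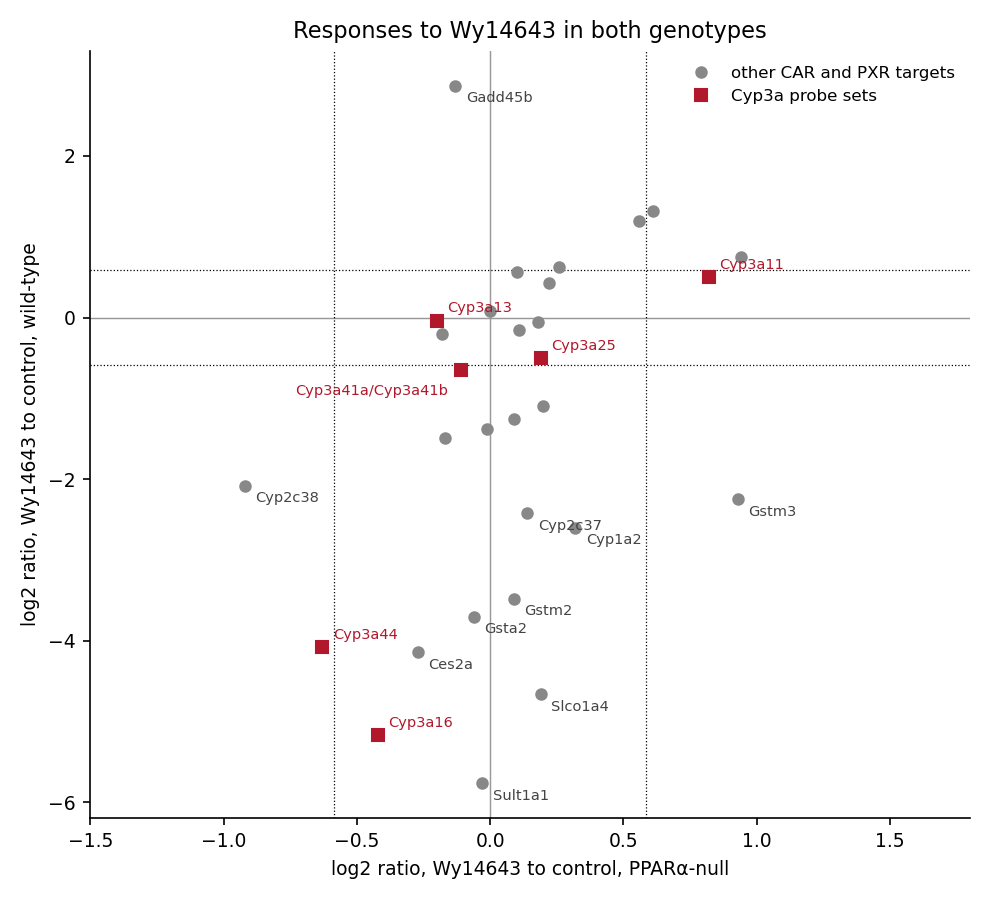
Wy14643-to-control log2 ratio, with PPARα-null mice along the horizontal and wild-type mice along the vertical axis, for the 6 Cyp3a probe sets (squares) and 24 other CAR and PXR targets (circles), 1 point per gene, with dotted lines at 1.5-fold. Cyp3a16 and Cyp3a44 lie with Sult1a1, Slco1a4 and Ces2a at the bottom, at -0.42 and -0.63 on the horizontal axis for Cyp3a16 and Cyp3a44, and Cyp3a11 lies above 0 on both axes.

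The receptors CAR and PXR themselves stayed within 1.5-fold. CAR (Nr1i3) had 868 in Wy14643-fed wild-type mice and 917 in wild-type controls, and 1165 in Wy14643-fed PPARα-null mice and 952 in PPARα-null controls, at most 1.22-fold apart between diets. PXR (Nr1i2) was dim, with 24.6 and 24.4 in Wy14643-fed wild-type mice and control diet and 22.5 and 23.1 in PPARα-null mice. Neither receptor thus reached 1.5-fold in any comparison. Among 18 measured receptors and co-regulators, 4 were at least 1.5-fold lower and 2 higher on Wy14643 in wild-type mice (their median log2 ratio was -0.09), where 14.9% of all probe sets were lower and 14.9% higher, and 0 in either direction in PPARα-null mice (median 0.09). The lower ones were the liver-enriched factor genes Cebpa (2.62-fold) and Foxa2 (2.29-fold), the coactivator gene Ppargc1a (2.57-fold) and Dnajc7 (2.01-fold), a chaperone gene whose product holds CAR in the cytosol. The higher ones were Nr0b2, which encodes the corepressor SHP (1.78-fold), and Cebpb (1.52-fold). Between the genotypes on Wy14643, 4 of the 18 were higher and 1 lower in PPARα-null mice, against 16.5% and 17.1% of all probe sets. The RXR gene Rxra was among the higher, with 1332 in Wy14643-fed PPARα-null and 772 in Wy14643-fed wild-type mice (1.73-fold).

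Genes for the electron supply and the heme of P450 enzymes were read next, against the 14.9% of all probe sets higher and 14.9% lower in the wild-type comparison of diets. The shares in PPARα-null mice were 2.17% higher and 4.78% lower. Of 6 measured electron transfer genes, 1 was higher in Wy14643-fed wild-type mice, the membrane heme protein gene Pgrmc2 (1.75-fold), and 0 lower (median 0.00). In PPARα-null mice Cyb5b, the gene of the type B cytochrome b5, was 1.58-fold lower and 0 were higher. Cyb5a, the other cytochrome b5 gene listed, was level. It read 6286 in Wy14643-fed wild-type mice and 6343 in wild-type controls, and 6761 in Wy14643-fed PPARα-null mice and 6759 in PPARα-null controls. Of 11 heme genes, Blvrb (3.16-fold higher) and Alad (1.52-fold higher), which act in heme breakdown and synthesis, and Blvra (1.52-fold lower), a biliverdin reductase gene, passed 1.5-fold in wild-type mice, against 0 genes in the PPARα-null comparison. Alas1, the rate-limiting enzyme of heme synthesis and itself a CAR and PXR target, read 2484 in Wy14643-fed wild-type mice and 2741 in wild-type controls, and 4244 in Wy14643-fed PPARα-null mice and 2979 in PPARα-null controls, and was short of 1.5-fold between diets in both genotypes. Between the genotypes on Wy14643, 2 of 11 heme genes were higher and 4 lower in PPARα-null mice, and of 6 electron transfer genes 0 were higher and 2 lower, against 16.5% higher and 17.1% lower among all probe sets.

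Since several members are female-predominant, other genes that differ between the sexes of mouse liver were read in the same way. Of 9 measured female-biased genes, 6 were at least 1.5-fold lower and 1 higher on Wy14643 in wild-type mice (median -0.83). In PPARα-null mice 1 was lower and 0 higher (median -0.09). Among all probe sets, 14.9% were lower and 14.9% higher in wild-type mice, and 4.78% lower and 2.17% higher in PPARα-null mice. Sult3a1, a sulfotransferase gene of female liver, was lowest, with 3404 in Wy14643-fed wild-type mice and 12504 in wild-type controls, and 11611 in Wy14643-fed PPARα-null mice and 12129 in PPARα-null controls. It was followed by the steroid hydroxylase gene Cyp17a1 (2.21-fold lower) and the transcription factor gene Cux2 (2.18-fold lower), and Vldlr was 2.89-fold higher. Male-biased genes split, with 3 higher and 3 lower of 8 measured in wild-type mice, and 2 higher and 1 lower of 7 in PPARα-null mice. In wild-type mice Slco1a1 was 10.2-fold, Bcl6 3.22-fold and Cyp7b1 3.21-fold lower, and Cyp4a12a, Elovl3 and Cyp2d9 were higher. Hsd3b5, a steroid dehydrogenase gene of male liver, was below background on all 4 arrays (6.16 to 7.44), and Cyp4a12a was below it on all but the wild-type Wy14643 array.

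Markers of other liver cells moved with the diet as well. The shares of all probe sets past 1.5-fold between diets differ by genotype. They were 14.9% lower and 14.9% higher in wild-type mice, and 4.78% lower and 2.17% higher in PPARα-null mice. Of 8 measured Kupffer cell markers, 7 were at least 1.5-fold lower on Wy14643 in wild-type mice, as were 8 in the PPARα-null pair, with summed intensities over the list of 429 in Wy14643-fed wild-type mice, 1078 in wild-type controls, 672 in Wy14643-fed PPARα-null mice and 1291 in PPARα-null controls. Marco and Cd68 stayed below background throughout. Hepatocyte markers were at least 1.5-fold lower on Wy14643 for 4 of 9 genes in wild-type and 0 of 9 in PPARα-null mice, sinusoidal endothelial markers for 3 and 4 of 8 in wild-type and PPARα-null mice. The endothelial counts include Gpr182 in wild-type (8.62 against 13.9) and Kdr in PPARα-null mice (9.36 against 16.9). Their Wy14643 values lie below background, which allows folds of only 1.04 and 1.27 or more. Of the stellate cell markers, 3 of 6 were lower in wild-type mice, and 2 of 7 higher and 1 lower in PPARα-null mice. Of 6 measured neutrophil and lymphocyte markers, 4 were higher on Wy14643 in PPARα-null mice, and 0 of 3 in wild-type mice. S100a8 and S100a9 stood at 106 and 105 in the PPARα-null Wy14643 pool, against 15.7 and 17.6 in PPARα-null controls. Ngp and Ms4a1 were counted too, at 17.7 and 19.9 against 10.4 and 12.7, which lie below background. The smallest folds that background allows for Ngp and Ms4a1 are 1.33 and 1.5. Of 6 cholangiocyte markers with a probe set only Sox9 was above background, and 0 of 3 measured erythroid markers reached 1.5-fold between diets. The part of these shifts in the Cyp3a values was not tested, and in pooled bulk RNA fewer cells of a type and less RNA per cell cannot be told apart.

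Genes with the pattern most like that of a member were found by the root mean square difference of log2 values, centred over the 4 arrays, among the 9878 probe sets exceeding background on each of them. For Cyp3a44 they were Lifr (0.155), the receptor of leukemia inhibitory factor, Ces2a (0.161) and the complement gene C8b (0.187), and for Cyp3a16 Frmd4b (0.262), the bile acid synthesis gene Cyp7a1 (0.269) and Lifr (0.303). Lifr read 143 in Wy14643-fed wild-type mice and 3223 in wild-type controls, and 2106 in Wy14643-fed PPARα-null mice and 3363 in PPARα-null controls, and thus repeated the order of the pools seen for Cyp3a44. Nearest to Cyp3a11 were 2810408B13Rik (0.0428), Nop56 (0.0653) and Kmt5a (0.0686). For Cyp2b10, which hardly left background, Tia1 (0.00646), U2af2 (0.011) and Lyve1 (0.0168) came closest. The matched Lyve1 probe set read 17.7 in Wy14643-fed PPARα-null mice and 13.8 in PPARα-null controls. A brighter Lyve1 probe set, used in the marker counts, read 21.6 and 19.5 in these pools. With 4 points per gene such likeness is a description only.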

How the data were processed

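The authors extracted liver RNA with TRIzol, pooled it within each group and hybridized it to Affymetrix MOE430A arrays. They computed probe set levels with GCRMA (version 2.20 in the submitters' processing notes), which corrects background by probe sequence, applies quantile normalization and summarises the probes of a set. The deposited values are intensities on the linear scale. Whether other arrays were processed with these is not given in the sources used here. For the wild-type Wy14643 array the free text names control conditions, and the title was followed.

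Of 22690 probe sets, 64 controls were left out. Gene symbols came from the platform annotation, updated through gene IDs to GRCm38.p6: 20380 probe sets have 1 symbol, 691 several and 1555 none. Log2 ratios of single arrays were called at 1.5-fold, the threshold of the study, among probe sets above background on at least 1 array compared. For other lists the brightest probe set with 1 symbol stands for a gene, and the named genes are all members, up to 3 genes per list and direction with the largest ratio in wild-type mice, Nr1i2, Nr1i3 and Ppara, and the 3 genes most like Cyp3a11 and Cyp2b10; further names, such as those most like Cyp3a16 and Cyp3a44, were added after their values were seen. Where 1 array was below background the fold printed is the smallest that background allows, while the counts use the ratio as measured. Members and lists were chosen with earlier results of these data known. The call rule was run on simulated data with large changes in bright probe sets. That run checks the coding of the rule only, and not calls near background or near 1.5-fold. Python 3.11.15, numpy 2.4.6, pandas 2.3.3, Biopython 1.88, R 4.3.3 and limma 3.58.1 (cyclic loess) were used.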

Additional observations from a re-analysis of the deposited data

Results flagged for a closer look

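Cyp3a25 was lower on Wy14643 in wild-type mice (log2 ratio -0.50) and higher in PPARα-null mice (0.19), so that its responses ran in opposite directions and differed by 0.69 on the log2 scale. The difference was not tested, and neither response reached 1.5-fold.

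Xist gave signal in pools labelled as male, at 328 in wild-type mice on Wy14643, where background is 13.3 and the Y-linked genes Eif2s3y, Kdm5d and Uty reached at most 10.3. These probe sets belong to none of the comparisons. The part of the sex of the mice in the Cyp3a values was not tested.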

How the results depend on the processing

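No paired analysis was possible because each group is 1 array. Under 9 alternatives (a floor at background, 32 added to every intensity, no background filter or one on both arrays, centring, cyclic loess, no _x_at and _s_at probe sets, 1 probe set a gene, and a 2-fold threshold), 86 counts of members stayed within 1.5 times their value and 4 did not. At 2-fold, 0 members were higher and 0 lower on Wy14643 in PPARα-null mice. At that threshold, between the Wy14643 pools, 2 were higher in PPARα-null mice. With centring, 0 were lower on Wy14643 in PPARα-null mice. Leaving out _x_at and _s_at probe sets, or keeping 1 a gene, removed only Cyp2b10 probe sets below background. No count of members measured could change under these alternatives, and a count of 0 could not rise at 2-fold. The members lower on Wy14643 in wild-type mice went from 3 to 2 at 2-fold, which was counted as within 1.5 times. Of the member ratios, 134 moved by less than 0.33, the SD of all log2 ratios between the PPARα-null arrays, and 0 of those past 1.5-fold changed sign. Between the genotypes on the control diet, Cyp3a13 and Cyp2b10 stood at -0.03 and -0.04 with centring, against 0.02 and 0.00. The 6 ratios that moved further were those of Cyp3a16 and Cyp3a44 with 32 added, at -3.75 and -3.60 in the wild-type comparison of diets. For the other gene lists, 422 counts stayed within 1.5 times and 58 did not. The cause was not tested. Signal over background limits Cyp2b10, and the single array per group limits every ratio.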
